A study of Mus musculus with 2 samples.

Results

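Gpnmb, Lgals3 and Fabp5 are genes that macrophages are known to switch on when they fill with lipid, and they were followed here across cells of the mouse optic nerve. They are 3 of the 31053 gene rows measured, of which 14428 had at least 1 unique molecular identifier (UMI, a tag that stands for 1 captured transcript). They were taken by name and chosen by their detection and level in the injured against the uninjured library, which were known beforehand. Their difference between injured and uninjured cells is therefore a description and not a finding. Detection by depth, holding of the genes in the same cell and accompanying genes are likewise described without a test, since each group was 1 library.

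Gpnmb encodes a transmembrane glycoprotein of lysosomes and the cell surface that is known as a target of the MiT/TFE transcription factors. Lgals3 encodes galectin-3, a lectin that binds galactose-bearing sugars outside the cell and on damaged lysosomes inside it. Fabp5 encodes a small cytosolic protein that carries fatty acids and retinoic acid to enzymes and to nuclear receptors. In nervous tissue all 3 are known as genes of phagocytes that have taken up myelin debris, and the crushed optic nerve, whose cut-off axons and myelin are cleared slowly, is a place where such cells gather.

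The cells were macrophages and microglia of the optic nerve from wildtype 129S1/SvlmJ mice of both sexes, captured in droplets with the 10x Genomics 3' chemistry. The injured nerves were crushed when the mice were 8 weeks old and taken 2 weeks later, at 10 weeks, and the uninjured nerves came from mice of 10 weeks; another label gives postnatal day 56 for both. The injured library held 727 cells with 3697992 UMIs and the uninjured library 51 cells with 87499 UMIs, and how many animals were pooled was not stated. With 1 library per group and no replicate, intervals are exact 95% intervals for counting error only, and UMIs clumped in few cells make them too narrow.

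Macrophage and microglia markers bore out the label, with UMIs of at least 3 of 12 such genes in 683 injured and 46 uninjured cells. Markers of other cells moved with the groups: myelin genes made up 0.118% of UMIs in injured cells and 0.862% in uninjured cells, and haemoglobin genes 0.00116% and 11.7%. Nearly all haemoglobin came from 1 uninjured cell, in which it accounted for 10194 of 11100 UMIs. The mitochondrial share was 2.75% in injured cells and 5.39% in uninjured cells. Of the injured cells, 144 had at least 5000 UMIs and are called deep here, against 4 uninjured cells, and the deep cells held 79.9% of injured and 41.1% of uninjured UMIs. Among the injured cells, 5 (3 of them deep) carried at least 3 T cell genes and no C1qa UMI, and 0 uninjured cells did so. The part of these differences in the results below was not tested. A level is given in CPM, the UMIs of a gene scaled to a common total for the cells in question, and is compared only within a gene.

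Gpnmb lies on mm10 chromosome 6 between bases 49036546 and 49070929, Lgals3 on chromosome 14 between 47367751 and 47386160 and Fabp5 on chromosome 3 between 10012548 and 10016607, all on the plus strand and all protein coding, with 11, 6 and 4 exons in the longest coding transcript of GENCODE vM21. The stretches before the RefSeq starts of Gpnmb and Lgals3 are shown because the RefSeq promoter table held 2 of the 3 genes, without Fabp5. Whether shared upstream sequence bears on their levels was not tested. The stretches are from build GRCm38.p6, with chr6:49036268-49036517 for Gpnmb and chr14:47373610-47373812 for Lgals3. Both are on the plus strand and read 5′ to 3′, and 47 bases of an annotated exon were left out of the Lgals3 window. The RefSeq start of Lgals3 differs from the outermost GENCODE start, so that its window lies inside the gene bounds given above.
Gpnmb: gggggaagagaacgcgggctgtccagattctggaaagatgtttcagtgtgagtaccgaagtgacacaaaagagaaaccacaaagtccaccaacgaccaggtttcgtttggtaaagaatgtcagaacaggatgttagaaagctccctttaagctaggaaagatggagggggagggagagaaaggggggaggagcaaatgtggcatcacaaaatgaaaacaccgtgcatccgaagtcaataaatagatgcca
Lgals3: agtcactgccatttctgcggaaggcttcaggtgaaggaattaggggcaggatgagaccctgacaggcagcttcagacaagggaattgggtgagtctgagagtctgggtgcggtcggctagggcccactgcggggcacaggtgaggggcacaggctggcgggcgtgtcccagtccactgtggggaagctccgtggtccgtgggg
No capitals appear because no searched motif matched. The E-box CACGTG, the M-box core CATGTG, the AP-1 motif TGANTCA and the TATA core TATAAA were looked for on both strands and had 0 matches in either window. Among 32851 windows of 250 bases, 6.02% held CACGTG, 12.3% CATGTG, 6.75% TGANTCA and 12.4% TATAAA, so that having none of the 4 says only that these letters are not in these windows, of which that of Lgals3 was shorter, with 203 bases. The windows also differed in composition, with 47.2% G and C for Gpnmb and 63.1% for Lgals3.

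All 3 genes were abundant in injured cells and scarce or undetected in uninjured ones. Gpnmb had 4631 UMIs in injured cells, 1252 CPM (1216 to 1289), and 0 in uninjured cells, at least 36.5-fold higher against 3 UMIs over the uninjured library. Lgals3 had 3844 UMIs in injured cells, 1039 CPM (1007 to 1073), and 0 in uninjured cells, at least 30.3-fold higher. Fabp5 had 5246 UMIs in injured cells, 1419 CPM (1380 to 1458), and 6 in uninjured cells, 68.6 CPM (25.2 to 149), a ratio of 20.7 (9.50 to 56.4). Among the 4021 genes that at least 10% of cells held in either library, 32.8% were at least 1.5-fold higher and 21.8% at least 1.5-fold lower in injured cells on the scale of CPM plus 10. On that scale the log2 ratio of injured over uninjured cells was 6.98 for Gpnmb, 6.71 for Lgals3 and 4.18 for Fabp5, ranks 2, 4 and 14 from the top, where the median gene had 0.17. Since 188 of the 4021 genes, 4.68%, had 0 uninjured UMIs, the ranks of Gpnmb and Lgals3 rest on the pseudocount.

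Of injured cells, 295 held a Gpnmb UMI (40.6%), 398 an Lgals3 UMI (54.7%) and 400 a Fabp5 UMI (55.0%). Of the 51 uninjured cells, 0 held Gpnmb, 0 held Lgals3 and 4 held Fabp5 (7.84%), where 0 of 51 allows a share of up to 6.98%. The 4 uninjured cells had 2, 1, 2 and 1 Fabp5 UMIs out of 6406, 590, 2646 and 1805, and each also had C1qa, a complement gene of macrophages and microglia. With all cells drawn down to 500 UMIs (2 shallower uninjured cells dropped out), Gpnmb was held by 19.1% of injured and 0% of uninjured cells, Lgals3 by 29.4% and 0%, and Fabp5 by 32.9% and 2.04%. The shares were smaller at equal depth, and the injured library still held more of each gene. As a measure of free RNA, the 5 injured cells with T cell genes, median 5387 UMIs, held Gpnmb in 0, Lgals3 in 3 and Fabp5 in 1 cell, with 5 Lgals3 UMIs (230 CPM) and 1 Fabp5 UMI (45.9 CPM). T cells can make Lgals3 themselves, and 5 cells bound a share loosely, since 0 of 5 allows up to 52.2%.

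The shares were highest in the deepest cells, but the levels of the 3 genes did not follow depth alike. From under 600 through 600 to 1000, 1000 to 5000 and 5000 to 15000 to at least 15000 UMIs, Gpnmb was held by 14.7%, 25.2%, 41.0%, 68.9% and 88.9% of injured cells. Its level climbed along the same classes, with 315, 578, 788, 1071 and 1445 CPM. Lgals3 was held by 44.0%, 39.0%, 53.9%, 71.1% and 96.0% of injured cells in those classes. Its level was 1194, 803, 772, 627 and 1175 CPM, so the shallowest and the deepest cells had about the same level and the cells between had less. Fabp5 was held by 28.4%, 40.8%, 60.2%, 68.9% and 96.0% of injured cells. Its level was 978, 1092, 1161, 679 and 1627 CPM, lowest in the class of 5000 to 15000 UMIs, as for Lgals3. No uninjured cell had 15000 UMIs, so the deepest class has no counterpart. Among cells under 600 UMIs, Gpnmb's level in injured cells was under what 0 of the uninjured UMIs allows, so there its difference was not detectable at this depth.

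**Figure D1:**
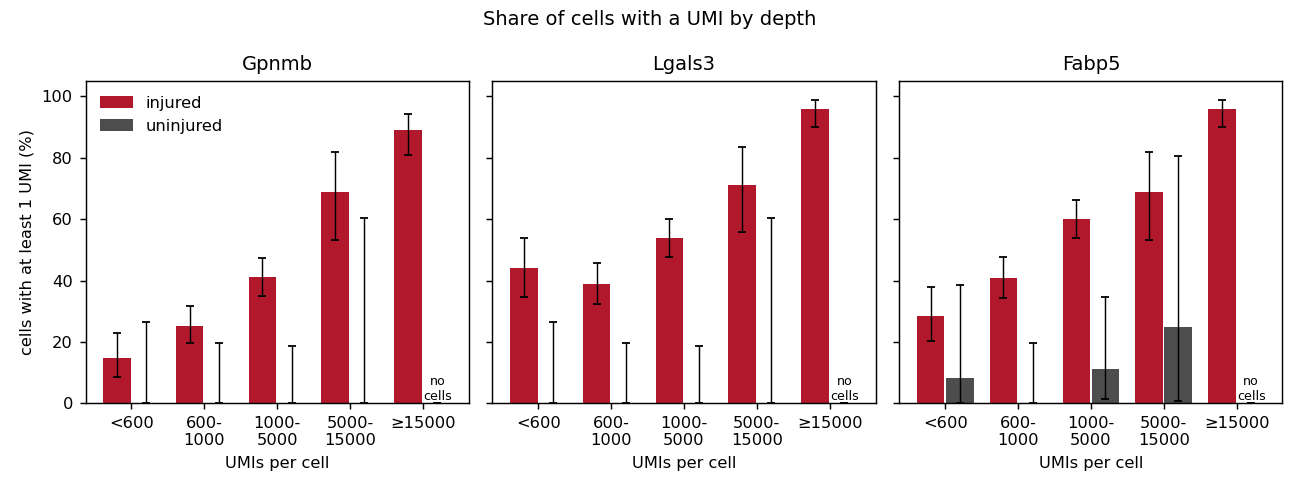
Share of cells with at least 1 UMI of Gpnmb, Lgals3 and Fabp5 (percent) by UMIs per cell, injured cells in red and uninjured cells in grey, with exact 95% intervals for counting error. The injured share climbs to 88.9%, 96.0% and 96.0% at 15000 UMIs and over, where the uninjured library had no cells.

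Gpnmb parted from the other genes between the kinds of shallow cell. Cells under 5000 UMIs were divided by Malat1, a nuclear noncoding RNA, into 91 injured cells with at least 1% of their UMIs from Malat1, which are Malat1-rich, and 492 with less, which are Malat1-poor. Gpnmb stood at 1391 CPM in deep, 1600 CPM in shallow Malat1-rich and 424 CPM in shallow Malat1-poor injured cells. Lgals3 stood at 1097, 443 and 928 CPM in the same kinds, and Fabp5 at 1491, 397 and 1357 CPM. Between the shallow kinds, Gpnmb was thus higher where Lgals3 and Fabp5 were lower. The order of the shallow kinds held after thinning to 500 UMIs, where Gpnmb was held by 28.5% of deep, 25.3% of Malat1-rich and 15.2% of Malat1-poor injured cells, Lgals3 by 26.4%, 11% and 33.7% and Fabp5 by 34.0%, 20.9% and 34.8%. It held as well with each cell weighted equally, with 1244, 1211 and 447 CPM for Gpnmb, 937, 397 and 959 CPM for Lgals3 and 1251, 460 and 1251 CPM for Fabp5 in the same kinds. The place of the deep cells changed: for Gpnmb they stood above the Malat1-rich cells in both of these, and for Lgals3 below the Malat1-poor ones. Other measures moved with the kinds: the median cell had 1668 UMIs, 10.7% mitochondrial and 2.87% ribosomal protein UMIs among Malat1-rich cells, against 847.5 UMIs, 0.503% and 17.8% among Malat1-poor cells. Their part in the difference was not tested.

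Which genes were held together differed in the same way. Of the Malat1-rich injured cells, 17 of 91 held Gpnmb alone (18.7%) and 3 held Lgals3 with Fabp5 but no Gpnmb (3.30%). Of the Malat1-poor ones, 34 of 492 held Gpnmb alone (6.91%) and 97 held Lgals3 with Fabp5 but no Gpnmb (19.7%). All 3 genes were held by 14 Malat1-rich (15.4%) and 49 Malat1-poor cells (9.96%), and none by 28 (30.8%) and 122 (24.8%). Against uninjured cells of the same kind, Fabp5 had ratios of 26.8 (7.41 to 221) in deep, 5.09 (1.36 to 42.8) in Malat1-rich and 17.6 (4.86 to 146) in Malat1-poor cells, each resting on 2 uninjured UMIs; the haemoglobin-rich cell was 1 of the 4 deep uninjured cells and held 11100 of their 35936 UMIs. For Gpnmb the lower bounds were 16.7, 13.7 and 3.67, and for Lgals3 13.1, 3.78 and 8.03.

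**Figure D2:**
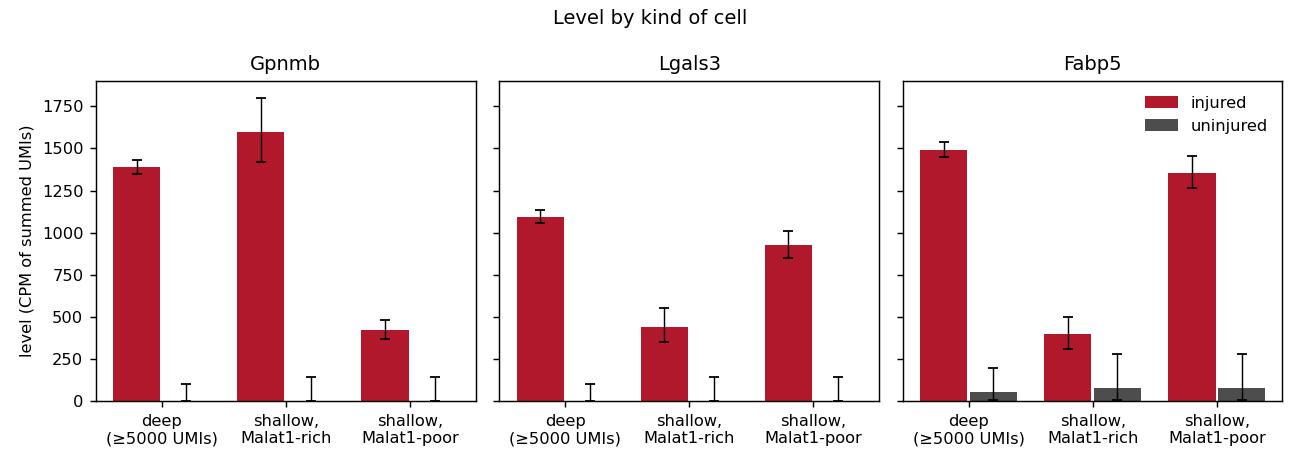
Level of each gene (CPM of summed UMIs) in deep, shallow Malat1-rich and shallow Malat1-poor cells, injured in red and uninjured in grey, with exact 95% intervals for counting error. Gpnmb stands at 1600 CPM in injured Malat1-rich cells and 424 CPM in injured Malat1-poor cells, while Lgals3 and Fabp5 stand in the opposite order.

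Within the 144 deep injured cells the 3 genes were spread over a wide range. Gpnmb was at 0 in 25 cells, had quartiles of 133 and 1466 CPM around a median of 570 CPM, and reached 14854 CPM. Lgals3 was at 0 in 17 cells, with a median of 490 CPM, quartiles of 152 and 1314 CPM and a highest value of 6713 CPM. Fabp5 was at 0 in 18 cells, with a median of 631 CPM, quartiles of 169 and 1442 CPM and a highest value of 10529 CPM. A few cells therefore weigh on every sum: the 10 injured cells with most UMIs of a gene held 40.4% of all injured Gpnmb UMIs, 33.5% of Lgals3 UMIs and 36.8% of Fabp5 UMIs. The cell with most Gpnmb, of 33325 UMIs, had 495 Gpnmb, 163 Lgals3 and 340 Fabp5 UMIs, so it was also far above the median of the other genes. Ranked by CPM instead, the 10 deep cells highest in Gpnmb shared 6 with those highest in Lgals3 and 5 with those highest in Fabp5. Those highest in Lgals3 and in Fabp5 shared 6, and 4 cells were in all 3 groups.

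Of the deep injured cells, 103 of 144 held at least 1 UMI of all 3 genes (71.5%), and 3 held none. Lgals3 with Fabp5 but no Gpnmb was held by 10 cells, Gpnmb with Fabp5 by 8 and Gpnmb with Lgals3 by 7. Single genes were rarer for Gpnmb, held alone by 1 cell, than for Lgals3, alone in 7 cells, and Fabp5, alone in 5. Lgals3 was held by 110 of 119 cells with Gpnmb (92.4%) and by 17 of 25 without it (68.0%). Gpnmb was held by 111 of 126 cells with Fabp5 (88.1%) and by 8 of 18 without it (44.4%). Fabp5 was held by 113 of 127 cells with Lgals3 (89.0%) and by 13 of 17 without it (76.5%). Above 15000 UMIs all 88 cells with Gpnmb also held Lgals3, whereas at 5000 to 15000 UMIs Lgals3 was held by 22 of 31 cells with Gpnmb (71.0%) and 10 of 14 without it (71.4%). In that class of 5000 to 15000 UMIs, Fabp5 was held by 21 of 32 cells with Lgals3 (65.6%) and 10 of 13 without it (76.9%). Gpnmb was held there by 26 of 31 cells with Fabp5 (83.9%) and 5 of 14 without it (35.7%). Thinned to 5000 UMIs, 78 cells held all 3 genes (54.2%) and 8 held none.

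Since nearly all deep cells held at least 1 gene, levels were used to part them. A cell counted as high in a gene when it lay above that gene's median over the 144 cells, with cells just below and just above at 568 and 573 CPM for Gpnmb, 482 and 497 CPM for Lgals3 and 624 and 638 CPM for Fabp5. High in all 3 genes were 49 cells (34.0%) and high in none were 45 (31.3%). The other 50 cells were split: 13 were high in Gpnmb alone, 10 in Lgals3 alone, 8 in Fabp5 alone, 9 in Lgals3 and Fabp5, 6 in Gpnmb and Fabp5 and 4 in Gpnmb and Lgals3. The cells high in all 3 had a median of 22609 UMIs, 2.18% mitochondrial and 14.4% ribosomal protein UMIs and 0 cells with T cell genes. The cells high in none had 17312 UMIs, 2.43% and 15.6%, and 2 cells with T cell genes. The cells high in Gpnmb alone had 15594 UMIs and the lowest ribosomal share of these 3 groups, 11.2%.

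Per-cell levels went together for every pair. Across the 144 cells, which share 1 library, the Spearman correlation of CPM was 0.57 for Gpnmb with Lgals3, 0.60 for Gpnmb with Fabp5 and 0.66 for Lgals3 with Fabp5. Ranks were taken among 7828 genes seen in at least 10% of these cells, without the 3 genes and without mitochondrial, ribosomal protein and predicted genes. Of these, 3 had a higher correlation with Gpnmb than Lgals3 had and 1 a higher one than Fabp5 had. For Lgals3, 4 genes stood above Gpnmb and 2 above Fabp5, and for Fabp5, 4 stood above Gpnmb and 2 above Lgals3. The pairs were looser in the 45 cells of 5000 to 15000 UMIs, at 0.36, 0.51 and 0.37, than in the 99 deeper ones, at 0.64, 0.66 and 0.72. With each cell thinned to 5000 UMIs they were 0.48, 0.53 and 0.61, and without the 3 deep cells with T cell genes 0.57, 0.58 and 0.66. Depth itself had correlations of 0.23 with Gpnmb, 0.30 with Lgals3 and 0.33 with Fabp5, the ribosomal share −0.40, −0.11 and −0.11, and the mitochondrial share −0.02, −0.29 and −0.13.

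**Figure D3:**
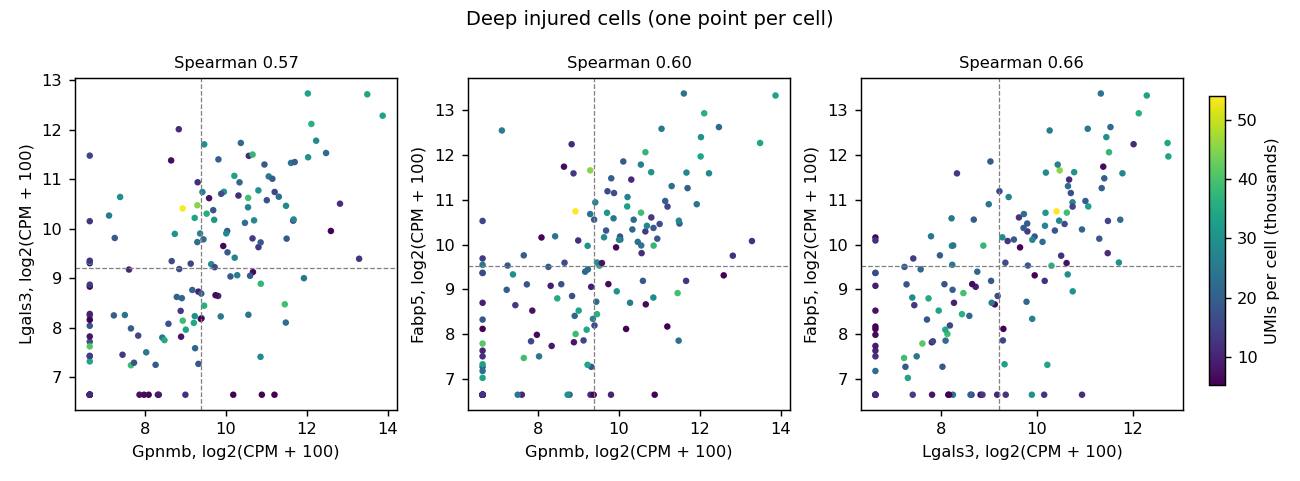
Per-cell levels of each pair of genes in the 144 deep injured cells, as log2 of CPM plus 100, coloured by UMIs per cell; dashed lines mark the medians. Most cells lie at the lower left and upper right of the dashed lines, with 49 cells above all 3 medians and 45 above none.

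Several of the genes that went most closely with Gpnmb encode lysosomal proteins. Among 7828 genes, 1.76% had a correlation with Gpnmb of at least 0.3 and 0.562% one of at most −0.3. Ctsb, a lysosomal cysteine protease, led with 0.70. Timp2, an inhibitor of matrix proteases, and Cd68, a lysosomal glycoprotein of macrophages, followed with 0.59 each, and Psap, the precursor of the saposins that help to break down sphingolipids, with 0.57. The next were Cd63, an endosomal tetraspanin, Ahnak2, and Ftl1, the ferritin light chain, with 0.56 each. Ctsd, a lysosomal aspartic protease, had 0.55, Cyba, a subunit of the phagocyte NADPH oxidase, 0.54, and Pld3, a lysosomal nuclease, 0.52. The lowest were Tmem176b (−0.44), Gmfg (−0.41), S100a4 (−0.41), Eif1 (−0.41) and Cd74, the invariant chain of MHC class II (−0.40).

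Lgals3 had a partly different set around it, with 3 of its 10 closest genes shared with Gpnmb and 5 with Fabp5. Of the genes compared, 1.75% reached 0.3 with Lgals3 and 0.498% were at or under −0.3. Cstb, a cytosolic inhibitor of cathepsins, and Ftl1 led with 0.72 each, followed by Capg, which caps actin filaments, with 0.60 and Vat1 with 0.59. Lgals1, another galectin, and Atp6v0e, a subunit of the proton pump, had 0.55 each, Cd68 and Cyba 0.54 each, and Anxa5, an annexin, and Prdx1, a peroxiredoxin, 0.53 each. The lowest were Csf1r, the receptor on which macrophages and microglia depend (−0.58), Tmem176b (−0.54), Tmem176a (−0.53), Lpcat2 (−0.45) and Gdi2 (−0.43).

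For Fabp5, 2.31% of genes reached 0.3 and 0.409% were at or under −0.3. Ftl1 had 0.72, Cyba 0.70, Cd63 0.64, Cstb 0.61 and Fth1, the ferritin heavy chain, 0.58. Amdhd2 had 0.57, Mgst1, a glutathione transferase, and Cd68 0.56 each, Vat1 0.55 and Bri3 0.54. The lowest were Selplg, the ligand of P-selectin (−0.42), Pmepa1, Dennd4a, Ptprc, the phosphatase CD45, and Marcksl1 (each −0.39). The 3 sets of 10 genes had Cd68, Cyba and Ftl1 in common, and Ftl1 had the highest mean correlation with the 3 genes, 0.67. Next by that mean came Cyba with 0.59, Cstb 0.58, Cd63 0.57, Cd68 0.56, Ctsb 0.55 and Vat1 0.53, then Gpr137b and Slc27a1, a fatty acid transporter, with 0.49 each and Uap1l1 with 0.48. Thinning each cell to 5000 UMIs kept 8 of the 10 genes for Gpnmb, 4 for Lgals3 and 5 for Fabp5. Ftl1 then still had 0.52, 0.69 and 0.69, whereas Atp6v0e had only 0.19 with Lgals3.

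**Figure D4:**
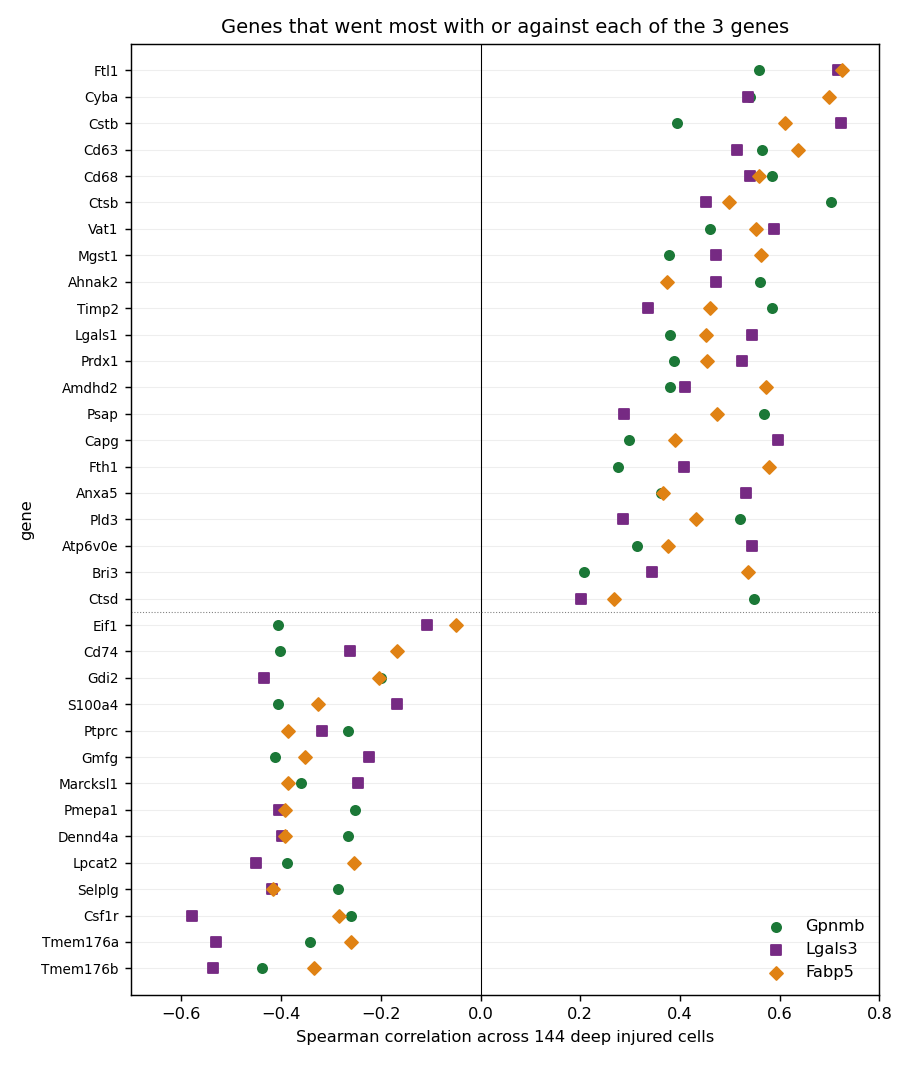
Spearman correlation of per-cell CPM with Gpnmb (green circles), Lgals3 (purple squares) and Fabp5 (orange diamonds) across the 144 deep injured cells, for the genes among the 10 highest (above the dotted line) or 5 lowest (below it) of any of the 3. Ctsb stands furthest right for Gpnmb at 0.70, Cstb and Ftl1 for Lgals3 at 0.72 each and Ftl1 for Fabp5 at 0.72.

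The genes whose correlations differed most were picked after their values were seen and are given as values only. Man2b1, a lysosomal mannosidase, had 0.33 with Gpnmb and −0.11 with Lgals3, Abca1, a cholesterol exporter, 0.43 and 0.05, and Grn, the precursor of granulins, 0.30 and −0.06. In the other direction Eif4a1, an RNA helicase of translation, had 0.04 with Gpnmb and 0.43 with Lgals3. Vim, an intermediate filament protein, had 0.38 with Lgals3 and 0.03 with Fabp5, and Ctss, another cathepsin, −0.19 and 0.19. Levels of Grn, Ctsd, Cstb and Ftl1 in cells high in only some genes are given as examples, named after their values were seen. The correlations of Grn, Ctsd and Cstb were among those that differed most across the same deep injured cells. Their unlike levels between cells split by Gpnmb, Lgals3 and Fabp5 therefore follow in part from that choice and test nothing. Ftl1 was not among the genes picked that way, but it was already named among the genes closest to each of the 3. Its correlation was 0.56 with Gpnmb and 0.72 with Lgals3 and with Fabp5. Its levels in the split cells therefore follow in part from the split as well and test nothing. Grn had a median of 1991 CPM (800 to 4125) in the 13 cells high in Gpnmb alone and 693 CPM (524 to 1210) in the 9 cells high in Lgals3 and Fabp5 but not Gpnmb. Ctsd had a median of 27032 CPM (7031 to 68286) in the cells high in Gpnmb alone and 8801 CPM (2238 to 14205) in the others. Cstb had a median of 140 CPM (0 to 322) in the cells high in Gpnmb alone and 624 CPM (44.1 to 1901) in the others, and Ftl1 4467 CPM (718 to 15057) and 11778 CPM (7649 to 37958). All of these ranges overlapped.

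Cells high in all 3 genes also held more of several lipid genes than cells high in none. Across 8139 genes seen in at least 10% of deep injured cells, 5.8% were at least 1.5-fold higher and 13% at least 1.5-fold lower in cells high in all 3 genes, with a median log2 ratio of −0.10. Across the 9486 genes seen in at least 5%, the limit used for list members, these were 5.44%, 12.7% and −0.11. Counts of higher and lower genes and log2 ratios use CPM plus 10, whereas folds printed beside levels are ratios of the plain CPM. The lists were chosen with earlier results of these data known. Members already named for their correlation with the 3 genes in these cells differ in part by construction of the split. Of 21 lipid and cholesterol genes, 10 passed 1.5-fold upward and 2 downward, and their median log2 ratio was 0.58. Cd63, among the higher ones, was such a member. Plin2, which coats lipid droplets, stood at 709 CPM in cells high in all 3 genes and 306 CPM in cells high in none, 2.31-fold (2.00 to 2.68). Pltp, which transfers phospholipids between lipoproteins, stood at 438 and 110 CPM, 3.99-fold (3.18 to 5.07). Fabp4, another fatty acid carrier, stood at 87.2 and 2.49 CPM, 35.0-fold (9.44 to 293), but was in 15 of 49 and 1 of 45 cells, and 3 cells held 63.4% of its deep UMIs. The lower ones were Ch25h, a cholesterol hydroxylase, at 15 and 49.8 CPM, and Lpl, lipoprotein lipase, at 666 and 1101 CPM. Ch25h was in 10 of 49 and 11 of 45 cells, with a median of 0 CPM in both. With each cell weighted equally, 1 lipid and cholesterol gene passed 1.5-fold downward instead of 2. Lpl's median cell went the other way, with 221 and 170 CPM, so that its sum and its median differ in sign.

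The disease-associated and lipid-associated list, from microglia and macrophages of brain and fat, had 8 of 17 members higher and 0 lower, at a median of 0.58. Of the higher ones, Ctsb, Cd68, Timp2 and Vat1 were already named among the genes closest to the 3 genes in these cells. Spp1, osteopontin, stood at 21246 CPM in cells high in all 3 genes and 6285 CPM in cells high in none, with median cells of 8506 and 1249 CPM. Vat1 stood at 293 and 71.0 CPM, Itgax, the integrin CD11c, at 231 and 82.2 CPM, and Ctsl, a cathepsin, at 3776 and 1485 CPM. Trem2, the lipid receptor of these cells, stood at 2365 and 2188 CPM and was not among the higher members. Of 19 proton pump and lysosome genes, 6 passed upward and 0 downward, and the median was 0.44. Psap, among the higher ones, was already named among the genes closest to Gpnmb in these cells. Atp6v0d2, a proton pump subunit, stood at 116 and 2.49 CPM, in 20 of 49 and 2 of 45 cells, Gla at 108 and 37.4 CPM, Atp6v1a at 126 and 52.3 CPM and Psap at 3778 and 1844 CPM.

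Lists of relatives and partners of the 3 genes were short, with 2 to 4 measured genes each. Lgals1 was already named among the genes closest to Lgals3 in these cells. Of the other fatty acid binding proteins, Fabp3 and Fabp4 were the 2 of 8 seen in at least 5% of deep injured cells, and Fabp3 stood at 128 CPM in cells high in all 3 genes and 42.4 CPM in cells high in none. Of the other galectins and their partner, Lgals1 stood at 689 and 222 CPM, 3.11-fold (2.64 to 3.68), and Lgals3bp, a ligand of galectins, at 131 and 78.5 CPM, while Lgals9 stood at 47.6 and 72.3 CPM and Lgals8 at 30.0 and 41.1 CPM, both within 1.5-fold on CPM plus 10. Of the MiT/TFE factors, Tfeb stood at 19.4 and 4.98 CPM, Mitf at 33.5 and 42.4 CPM and Tfe3 at 40.5 and 41.1 CPM; Pmel, the relative of Gpnmb, had 5 UMIs in all injured cells. Sdc4, a syndecan that Gpnmb is known to bind, stood at 91.7 and 391 CPM, with 1 cell of 5016 CPM among those high in none, and Cd44 at 49.4 and 39.9 CPM. None of 4 retinoid and fatty acid signalling partners of Fabp5 passed 1.5-fold on CPM plus 10: Ppard, its nuclear receptor partner, stood at 22.9 and 32.4 CPM. Pparg had 4.41 and 1.25 CPM, Rxra 19.4 and 13.7 CPM and Rxrb 22.9 and 24.9 CPM. None of 3 repair and uptake partners of Lgals3 passed it, with Atg16l1 at 18.5 and 13.7 CPM, Mertk at 80.2 and 93.4 CPM and Pdcd6ip at 96.9 and 88.5 CPM.

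Genes of resting microglia stood lower in cells high in all 3 genes than in cells high in none. Their median correlation was −0.10 with Gpnmb, −0.25 with Lgals3 and −0.17 with Fabp5. In the 13 cells high in Gpnmb alone, not every member was lower than in cells high in none. Cx3cr1 stood at 951 against 875 CPM and Csf1r at 1088 against 1121 CPM. Of 13 homeostatic microglia genes, 12 were at least 1.5-fold lower and 0 higher, with a median log2 ratio of −1.09. Csf1r and Selplg, among the lower ones, were already named for low correlations in these cells. These 2 differ in part by construction of the split. Siglech, a sialic acid lectin, stood at 8.81 CPM in cells high in all 3 genes and 72.3 CPM in cells high in none, P2ry12, a purine receptor, at 15.9 and 73.5 CPM, Tmem119 at 30.8 and 102 CPM and P2ry13 at 7.05 and 34.9 CPM. Of 5 border-associated macrophage genes, Mrc1, the mannose receptor, was lower, at 1.76 and 64.8 CPM, in 1 of 49 and 7 of 45 cells; Ms4a7 stood at 467 and 320 CPM, Pf4 at 310 and 405 CPM and Folr2 at 40.5 and 29.9 CPM. Of 5 monocyte genes, Lyz2 and F10 were higher and Ccr2, S100a4 and S100a6 lower. F10 was in 5 of 49 and 2 of 45 cells and Ccr2 in 2 of 49 and 7 of 45. For each, 3 cells held over 50% of its deep UMIs, 52.2% for F10 and 54.5% for Ccr2. In cells over 15000 UMIs only 1 of the 5 was higher. Lyz2, lysozyme, stood at 23012 and 11548 CPM, S100a6 at 14.1 and 56.1 CPM and Ccr2 at 10.6 and 27.4 CPM, and S100a4 was in 0 of 49 and 11 of 45 cells. Cd74 stood at 842 and 5043 CPM, with medians of 50.1 and 427 CPM. S100a4 and Cd74 were already named among the genes least correlated with Gpnmb in these cells.

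**Figure D5:**
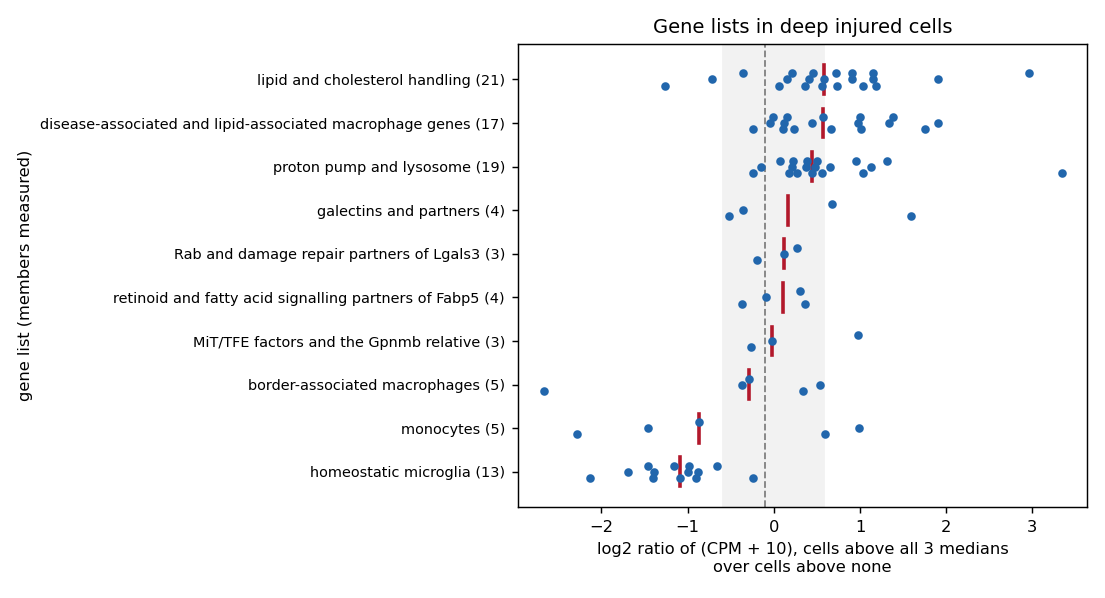
Log2 ratio of CPM plus 10 in deep injured cells above the medians of all 3 genes over cells above none, one point per measured gene, by list, for lists with at least 3 measured genes; red bars are list medians, the dashed line is the median of all genes compared (−0.10) and the grey band covers changes under 1.5-fold. Of the lists drawn, homeostatic microglia genes stand furthest left with a median of −1.09, and the lipid and the disease-associated lists furthest right with 0.58 each.

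Some list genes had, like Gpnmb and Lgals3, no UMI in the uninjured library. Of 95 distinct list genes seen in at least 5% of deep injured cells, 14 were at 0 there (14.7%), against 23.9% of all 9486 genes that passed the same minimum. For 6 of the 14 the injured level exceeded what 0 allows. These were Igf1, a growth factor, at least 14.5-fold higher in injured cells, Abcg1, a cholesterol exporter, at least 5.61-fold, Vat1 at least 5.36-fold, Nceh1, a cholesterol ester hydrolase, at least 3.23-fold, Fabp3 at least 2.44-fold and Atp6v0d2 at least 1.35-fold. For Atp6v0c, Ccr2, Cd36, F10, Fabp4, Mcoln1, Nr1h3 and Pparg the injured level lay under that limit and no fold can be read. Lyve1, a border macrophage gene, was the reverse, with 0 injured and 8 uninjured UMIs.

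The Fabp5 counts carry one further uncertainty. Among GENCODE vM21 transcripts, 5 processed pseudogenes (Fabp5l2, Gm13998, Gm14328, Gm6100 and Gm6166) matched at least 200 bases of the 987-base Fabp5 transcript at 90% identity or more, from 93.6% to 98.3%, over bases 93 to 500. None had a row of its own in the count table, so reads that fit both were either counted as Fabp5 or dropped, and which was not stated. No transcript of another gene met those limits for Gpnmb or Lgals3.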

How the data were processed

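The deposited table, 1 for both libraries, holds raw UMI counts (whole numbers, not normalized) with genes in rows and cells in columns, and its second line names the condition of each cell. Cell Ranger 1.3, bcl2fastq 2.17.1.14 and Seurat 4.0.3, with build mm10, are listed per the submitters' processing notes. Neither the annotation release nor how macrophages and microglia were picked is given in the sources used here. This table held all 778 cells stated by the submitters, with 226 to 6089 genes per cell, inside their limits of 200 to 6500. The libraries shared 0 cell barcodes. No doublet caller was run and no doublets were removed, so doublets among deep cells were not tested.

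UMIs were summed per library or kind of cell and given as CPM. Ratios carry exact conditional binomial, levels exact Poisson and shares Clopper-Pearson intervals at 95%; a count of 0 is bounded by 3 UMIs. Log2 ratios add 10 CPM. Spearman correlations used per-cell CPM. Cells were thinned to 500 or 5000 UMIs with a fixed seed. The median split uses the genes themselves and so tests nothing. The 26 rows named as dates were left out of comparisons. Named genes were, for each list, up to 4 members with the largest ratio and members at 0 in a library; for each of the 3 genes the 10 most and 5 least correlated, without mitochondrial, ribosomal and predicted genes; and the 10 with the highest mean correlation. Further genes were named as exceptions or as leading examples after their values were seen, and 1 list member is not reported here. The members and lists were chosen with earlier results of these data known. Scripts were tested on simulated data. Python 3.11.15, numpy 2.4.6, scipy 1.17.1, pandas 2.3.3 and matplotlib 3.10.9 were used.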

Additional observations from a re-analysis of the deposited data

How the results depend on the processing

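Under the alternatives run, no level, share or pair correlation of the 3 genes changed direction. The median log2 ratio of the border-associated macrophage list did, at −0.29 in all deep injured cells and 0.30 in those over 15000 UMIs. In the same cells the median of the MiT/TFE list went from −0.02 to 0.16. That of the repair and uptake partners of Lgals3 went from 0.12 to −0.03. The log2 ratios of injured over uninjured cells, 6.98 for Gpnmb and 6.71 for Lgals3, follow the pseudocount because the uninjured counts were 0: with 1 CPM they were 10.29 and 10.02, and with 100 CPM 3.76 and 3.51. Deep cells alone gave 7.13 and 6.79. Shallow Malat1-rich cells alone gave 7.33 for Gpnmb and 2.21 for Fabp5, against 4.18 for Fabp5 over all cells. The shares of injured cells became 19.1%, 29.4% and 32.9% for Gpnmb, Lgals3 and Fabp5 when thinned to 500 UMIs, and 25.6%, 33.6% and 37.3% when 2 UMIs were required. Pair correlations moved in cells of 5000 to 15000 UMIs, to 0.36 for Gpnmb with Lgals3 and 0.37 for Lgals3 with Fabp5, and from 3000 UMIs, to 0.47 for Gpnmb with Fabp5. Of the 10 closest genes, thinning kept 4 for Lgals3 and 5 for Fabp5, and cells over 15000 UMIs kept 6 for Fabp5. The count of genes higher in injured cells was 1317, and 2982 with no minimum share, 406 with a minimum of 25% and 397 with 100 CPM; the count lower was 876, and 3101, 156 and 354, so that with no minimum more genes were lower than higher. The minimum share also sets how many genes are compared, 14407 with no minimum, 4021 in the main setting and 1041 with 25%. The cause of these changes was not tested. Leaving out cells with T cell genes and the list counts with other weights or depths were added after the data were seen; 66 list counts stayed within 1.5-fold and 6 did not. No paired analysis was possible because each group had 1 library, so that no replicate could be left out either. With 51 uninjured cells, 0 UMIs allow up to 34.3 CPM, so uninjured levels below that were not detectable.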
